A study of Mus musculus with 36 samples.

Results

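Axon guidance ligands and receptors are described here in the embryonic mouse cortex across a series of Chd8 genotypes. The members were the semaphorins (Sema), plexins (Plxn), neuropilins (Nrp), slits, robos, ephrins (Efn), Eph receptors, netrins (Ntn, Ntng), Dcc and the Unc5 receptors, chosen by gene symbol and by a mean of at least 10 counts per library over all 18 libraries. This gave 69 genes of the 46603 in each count table. Of the 70 genes whose symbols fit, Plxnb3 was left out with a mean of 6.39 counts, and the members nearest the minimum were Ntn5 (17.4) and Epha6 (18.6). The rule used no difference between genotypes.

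Chd8 encodes a chromatin remodelling factor. At E12.5 the neocortex of single C57Bl/6J embryos was sequenced, with 3 embryos each of Chd8 +/+ (wild-type), Chd8 +/-, Chd8 neo/neo and Chd8 neo/-. The neo allele carries a neomycin cassette after exon 3 that lowers Chd8 expression, and the null allele lacks exon 3, so that neo/neo and neo/- embryos are hypomorphs and all 9 mutant embryos carry a constitutive allele. At E10.5, 3 conditional knockout libraries (cKO; sox1-Cre; Chd8f/f) were compared with 3 control libraries whose label combines Chd8f/f with Chd8 f/+ (Ctrl), and each library pooled the telencephalic vesicles of 2 embryos. Sox1-Cre recombines in the neuroepithelium, so that blood, vessel and mesenchymal cells in the cKO samples keep Chd8, and the control label does not say which pools were f/f and which f/+. The 2 stages were sequenced and counted as separate tables.

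Growing axons and migrating neurons are steered by secreted and membrane-bound cues that attract or repel them through receptors on the cell surface. Class 3 semaphorins are secreted, and most act through neuropilins, which bind the ligand, and A plexins or Plxnd1, which signal. Slits repel through robos, netrin-1 attracts through Dcc and repels through Unc5 receptors, and ephrins signal in both directions with Eph receptor tyrosine kinases. In the developing neocortex several of these genes are also used outside axons, in progenitor cells, migrating interneurons and blood vessels.

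To show the regulatory sequence of members from both ends of the results, the 250 bases before the RefSeq start of 5 of them are printed from GRCm38.p6, 5′ to 3′ on the strand of the gene. They were taken from members whose RefSeq start is at or upstream of the start in the count table. Nrp1, Epha8 and Ephb1 were lower in a hypomorph, while Sema3e and Ephb2 were higher in the cKO. Capitals mark matches, on either strand, to the GC box GGGCGG, to the box CCAAT, to the ETS core CCGGAA, and to E-boxes of the letters CAGCTG or of the letters CAGATG. Neighbouring matches can run together.
Nrp1, chr8:128358823-128359072, + strand: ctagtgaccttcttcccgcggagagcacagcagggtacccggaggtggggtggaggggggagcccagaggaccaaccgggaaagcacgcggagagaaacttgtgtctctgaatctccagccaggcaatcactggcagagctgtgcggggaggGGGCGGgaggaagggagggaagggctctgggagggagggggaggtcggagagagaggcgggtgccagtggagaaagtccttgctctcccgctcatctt
Epha8, chr4:136956817-136957066, - strand: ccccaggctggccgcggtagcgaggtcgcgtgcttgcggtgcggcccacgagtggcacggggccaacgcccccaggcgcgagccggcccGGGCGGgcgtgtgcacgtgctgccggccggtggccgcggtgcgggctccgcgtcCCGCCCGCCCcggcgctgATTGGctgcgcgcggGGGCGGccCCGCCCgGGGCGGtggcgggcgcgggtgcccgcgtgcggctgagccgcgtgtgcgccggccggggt
Ephb1, chr9:102354694-102354943, - strand: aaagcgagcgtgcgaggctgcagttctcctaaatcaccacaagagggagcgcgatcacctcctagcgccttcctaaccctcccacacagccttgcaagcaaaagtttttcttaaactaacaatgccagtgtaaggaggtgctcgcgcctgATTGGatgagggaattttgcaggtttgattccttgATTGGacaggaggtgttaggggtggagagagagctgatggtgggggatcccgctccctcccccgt
Sema3e, chr5:14025026-14025275, + strand: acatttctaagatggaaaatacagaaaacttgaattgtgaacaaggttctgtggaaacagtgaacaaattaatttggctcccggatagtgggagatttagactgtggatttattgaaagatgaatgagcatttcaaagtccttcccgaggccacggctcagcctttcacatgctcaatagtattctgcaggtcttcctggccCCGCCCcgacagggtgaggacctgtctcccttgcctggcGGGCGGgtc
Ephb2, chr4:136836013-136836262, - strand: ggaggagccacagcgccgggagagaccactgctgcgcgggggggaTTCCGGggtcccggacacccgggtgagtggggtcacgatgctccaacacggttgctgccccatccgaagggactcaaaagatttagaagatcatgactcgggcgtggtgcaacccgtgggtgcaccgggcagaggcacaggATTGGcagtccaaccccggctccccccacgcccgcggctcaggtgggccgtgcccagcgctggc
These 5 stretches differed widely in base composition, from 84.0% GC and 46 CpG dinucleotides at Epha8 to 48.0% GC and 7 CpG at Sema3e. The Epha8 stretch held 6 GC boxes and 1 CCAAT match, that of Sema3e 2 GC boxes, and that of Ephb1 2 CCAAT matches and no GC box.

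A RefSeq promoter was read for 59 members. There was no entry in the promoter table for Efnb3, Ntn1, Plxna1, Plxna4, Sema3b, Sema3f, Slit1 or Unc5d, and Dcc and Sema6a were not included. Over the 59 stretches of 250 bases the median was 16 CpG and 64.4% GC, against 14 CpG and 59.2% GC at 12871 genes tested for expression and 5 CpG and 52.0% GC at all 27025 genes with a promoter. A GC box was present at 43 of 59 members (72.9%), at 55.5% of genes tested and at 32.7% of all promoters. An ETS core was present at 6 members (10.2%), at 19.9% of genes tested and at 12.3% of all promoters. Matches to CCAAT were found at 28.8% of members, 35.5% of genes tested and 34.2% of all promoters. For CAGCTG the shares were 16.9%, 12.3% and 12.9%, and for CAGATG 8.47%, 10.6% and 14.6%. Where a gene had several windows, members were read at the one nearest their start in the count table. The other sets took the first by coordinate. These shares describe the letters in the window and no binding was measured.

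Library totals were 38774591 to 61051667 counts at E12.5 and 49632937 to 68488879 at E10.5. Chd8 itself was at 237 ± 2.41 CPM (counts scaled to a common library total, TMM-adjusted; mean ± SD, n = 3 here and below) in wild-type, 167 ± 3.04 in +/-, 209 ± 5.64 in neo/neo, 149 ± 8.38 in neo/-, 171 ± 12 in Ctrl and 121 ± 4.78 in cKO libraries. Reads were counted over the whole gene, including exons that the null and floxed alleles keep, so that this level checks the genotype only in part; neo/neo libraries lay above +/- libraries. Xist was high in 1 wild-type, 1 +/- and 2 neo/neo libraries (replicates 1 and 2) and in no neo/- library, so that sex was not balanced between genotypes. At E10.5 it was at 1779 and 2141 CPM in Ctrl replicates 1 and 3, at 3.09 in Ctrl replicate 2 and at 708 to 1069 in the cKO pools; Efnb1 and Plxna3 are the X-linked members. As a check of the dissection against tissue behind the forebrain, 8 midbrain and hindbrain markers summed to 3.54 to 16.1 CPM. In each group 2 to 4 of them had no more than 3 counts in any library. This list does not check for ventral telencephalon, of which 10 markers summed to 702 to 935 CPM at E12.5.

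The replicate 2 library of the Chd8 +/- embryos held the most signal of mesenchyme and meninges at E12.5. In it, 10 mesenchyme and meninges markers (such as Col1a1 and Foxc1) summed to 1228 CPM, against 583 to 890 in the other E12.5 libraries. Its value lay outside the range of the other 11 libraries for 20 of the 68 members tested (29.4%; 19.4% of all genes), for instance 4.41 CPM for Epha10, 32.6 for Unc5c and 375 for Ephb2. The same count was 4 to 24 in the other libraries, so that the members as a whole did not set this library apart. This library was kept, and counts without it are given where they differ. The summed erythroid and endothelial markers were highest in another E12.5 library, neo/- replicate 2 (6863 and 331 CPM).

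Levels of different members can be compared only per length, as CPM per kb of exon. In the wild-type cortex at E12.5 the ephrin-B ligand Efnb1 was highest, at 78.0 ± 6.81 CPM per kb, followed by Efnb2 and the semaphorin 4 receptor Plxnb2 (51.9 ± 3.32). Among receptors, Epha4 reached 37.9 ± 2.08, Plxna1 32.3 ± 1.83, Robo1 22.4 ± 0.678, Ephb2 22.1 ± 1.43, Dcc 14.8 ± 1.07 and Nrp2 13.8 ± 0.755 CPM per kb. The highest ligands of the other families were Efna2 (20.6 ± 1.54), Sema4c (16.8 ± 0.597), Ntn1 (10.8 ± 0.632), Slit1 (9.80 ± 0.654) and, for the secreted class 3 semaphorins, Sema3f (4.40 ± 0.627). Receptors and membrane-bound ligands thus led the order, and the secreted semaphorins were low in it. The length used was all exonic bases of a gene in the count table, not those of 1 transcript, and the order depends on it. Slit2, with 25433 exonic bases, had more CPM than Slit1 (95.6 ± 7.07 against 58.0 ± 3.87) but less per kb (3.76 ± 0.278).

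At E10.5 the order in the Ctrl libraries again began with Efnb1 (63.1 ± 7.27 CPM per kb), and Plxnb2 again led the plexins (41.7 ± 3.11). Ephb4 was the highest EphB receptor (21.4 ± 2.62), Sema3f the highest class 3 semaphorin (10.8 ± 2.28), Unc5b the highest of the Dcc and Unc5 receptors (5.27 ± 0.0939) and Slit2 the highest slit (3.58 ± 0.186). The tables were normalised separately, so no test was made between stages. Side by side, the wild-type E12.5 libraries lay above all Ctrl E10.5 libraries for 50 of 69 members, below them for 11, and overlapped for 8. The same count was not made over all genes, so it is not shown to be particular to the members. The ratio of mean CPM, E12.5 over E10.5, was 61.8 for Epha5, 35.4 for Unc5d, 21.9 for Slit1, 9.40 for Plxna2 and 8.29 for Dcc. It was below 1 for Ntn5 (0.135), Epha1 (0.254), Slit3 (0.395), Sema3f (0.409) and Epha2 (0.493). Over the same step the summed CPM of 12 neuron markers (such as Tubb3, Dcx and Map2) was 256 to 443 in the Ctrl and 4171 to 4923 in the wild-type libraries. For 10 ventral telencephalon markers it was 32.8 to 57.9 and 881 to 935, and for 10 radial glia markers 1894 to 2318 and 3076 to 3338. The dissection and the pooling also differed between the stages, and the part of cell content in these ratios was not tested.

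**Figure D1:**
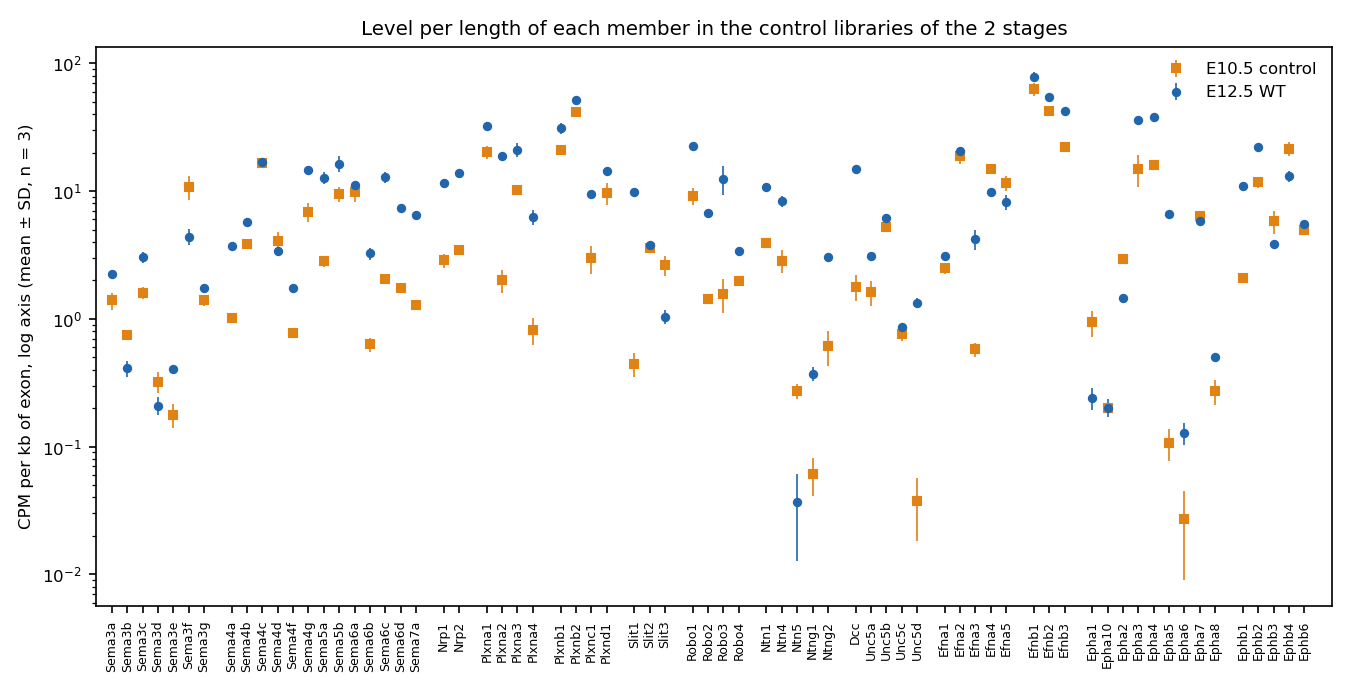
Level of each of the 69 members per kb of exon (log axis) in the E12.5 wild-type and E10.5 Ctrl libraries, as mean ± SD of 3 libraries, grouped by family. Efnb1 is highest at both stages, Epha5, Unc5d and Slit1 lie well above their E10.5 levels at E12.5, and Ntn5, Slit3 and Sema3f lie higher at E10.5.

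The first comparison asked whether losing 1 Chd8 allele altered these genes. In Chd8 +/- cortex none of 68 members tested was called higher or lower by edgeR's quasi-likelihood test at an adjusted p (Benjamini-Hochberg over all genes) under 0.05, nor by DESeq2, and 5 had an unadjusted p under 0.05. Over all 18810 genes tested, 0.0159% were called higher and 0.00532% lower. The median log2 fold change of the members was -0.01, with 31 positive and 37 negative values, and that of all genes 0.00. The 3 +/- libraries lay above the 3 wild-type libraries for Sema3a, Sema3c and Ephb6 (4.41% of members; 5.48% of all genes) and below them for Nrp1, Plxnd1, Robo4 and Sema4f (5.88%; 5.9% of all genes). Of these Sema3c had the largest log2 fold change, 0.34 (SE 0.091), with a mean of 27.4 ± 1.12 CPM in +/- against 21.7 ± 2.11 in wild-type, and it was not called (edgeR adjusted p = 0.545).

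In the Chd8 neo/neo cortex 7 members fell and none rose. They were Nrp1 and Nrp2, the semaphorin ligand Sema3c, the semaphorin receptor Plxnd1, the membrane semaphorin Sema4g, the netrin-1 receptor Dcc and the netrin-G Ntng2. These are 10.3% of the 68 members tested, beside 4.45% of all genes called lower and 3.71% called higher by the same edgeR test. In Chd8 neo/- cortex 6 members fell and none rose: Sema4g, Dcc, Robo1, Epha8, Epha6 and Ephb1 (8.82%), beside 5.99% of all genes called lower and 5.48% called higher. Sema4g and Dcc were called in both hypomorphs. The wild-type libraries are shared by these comparisons, so they are not independent of each other, and the p-values measure the spread between embryos of this series.

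The direction of the members as a set is seen in the plot of log2 fold changes by family. The median log2 fold change was -0.10 in neo/neo (25 positive, 43 negative; all genes 0.01) and -0.11 in neo/- (16 positive, 52 negative; all genes 0.00). Members are long and GC-rich, with a median of 6067 exonic bases and 56.1% GC beside 3316.5 bases and 49.3% for all genes tested, and after removing trends with length and GC the medians were -0.08 and -0.07. The 3 neo/neo libraries lay below the 3 wild-type libraries for 21 members (30.9%; 13.5% of all genes) and above them for 4 (5.88%; 12.5%). The neo/- libraries lay below wild-type for 27 members (39.7%; 16.9% of all genes) and above for 5 (7.35%; 16.4%). Both hypomorph means were below the wild-type mean for 42 of 68 members and above it for 15. From wild-type through +/- and neo/neo to neo/-, the mean fell at every step for 9 and rose at every step for 2. These counts of order were not made over all genes.

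**Figure D2:**
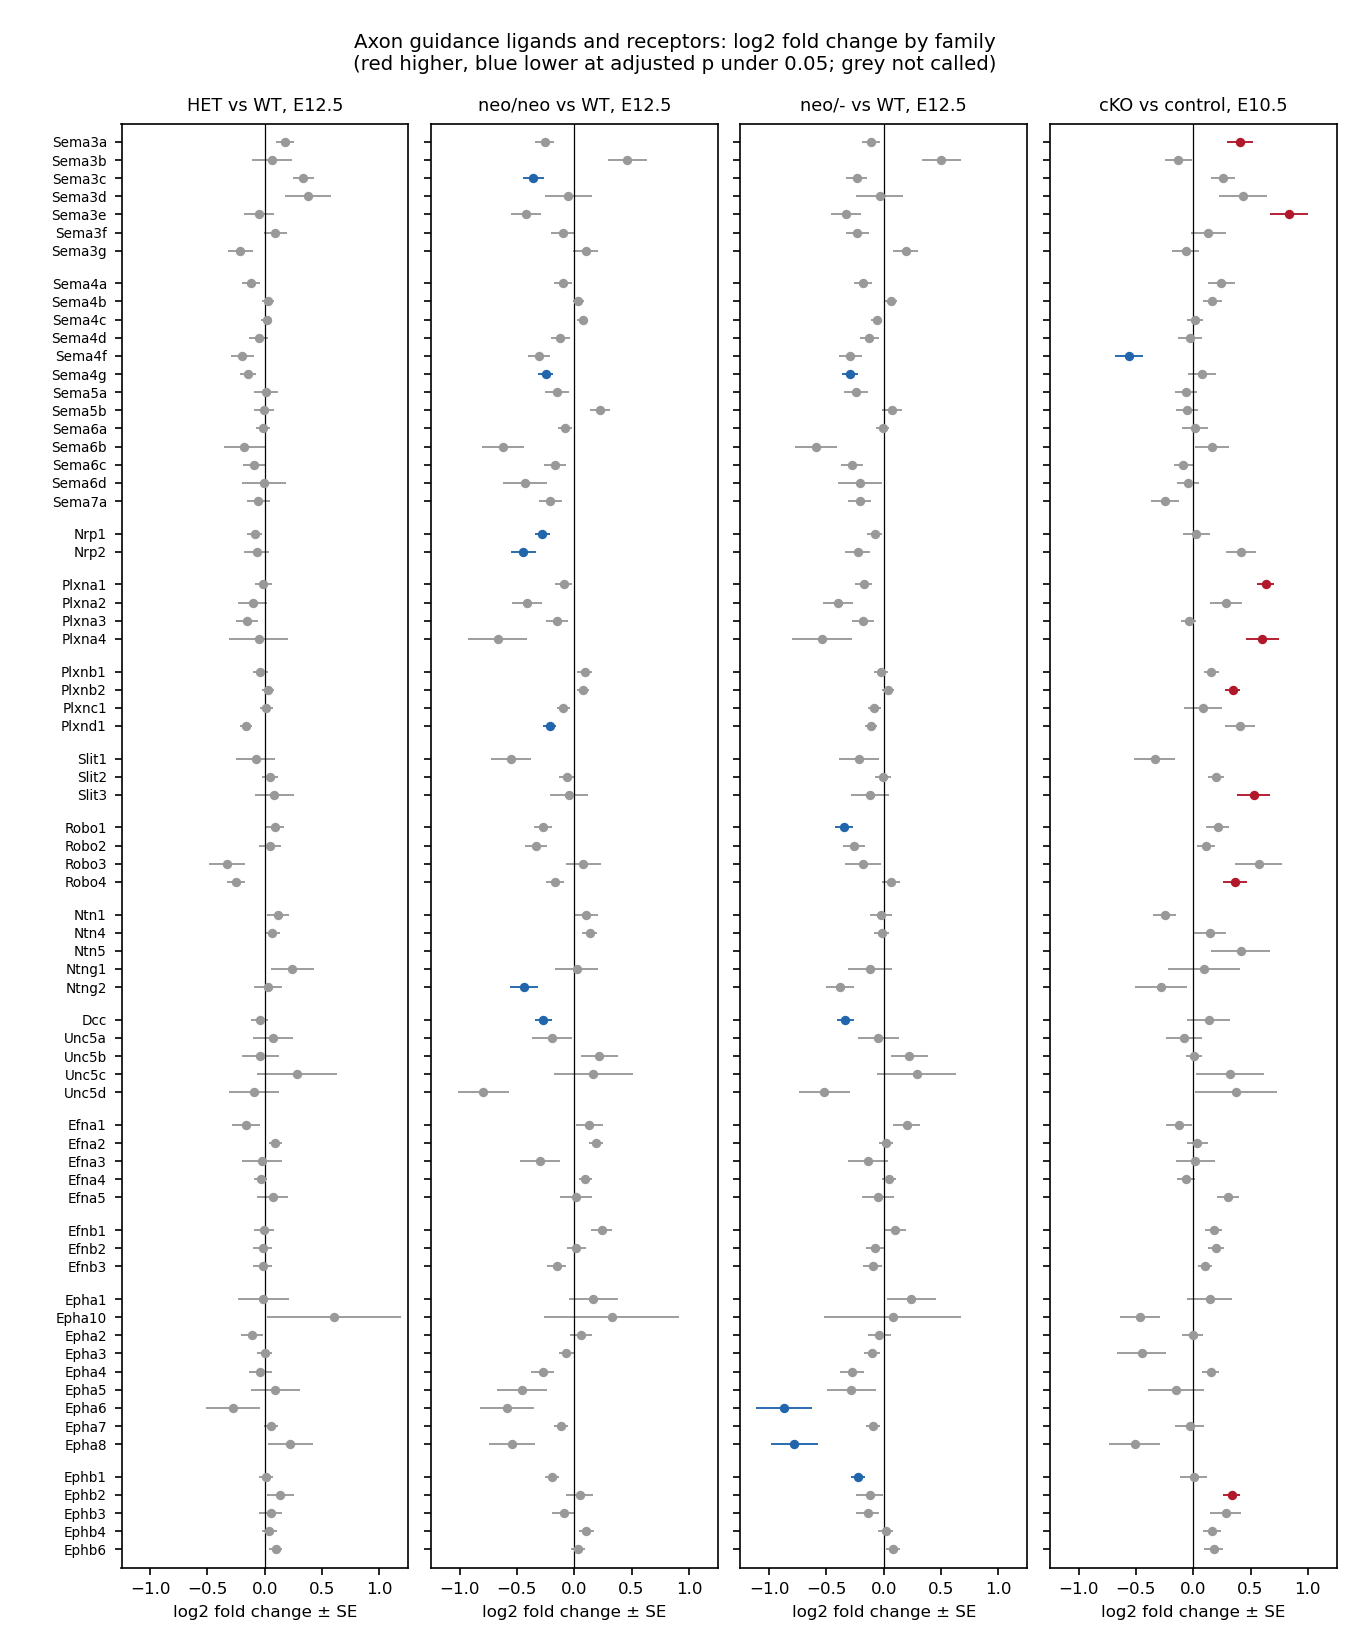
Log2 fold change ± SE of each member, in rows by family, for +/- (HET), neo/neo and neo/- against wild-type (WT) at E12.5 and cKO against control at E10.5; red and blue mark members called higher and lower by edgeR at an adjusted p under 0.05. The +/- panel has no call, the hypomorph panels have 7 and 6 lower calls, and the cKO panel has 8 higher calls and 1 lower.

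Of the 7 secreted class 3 semaphorins, Sema3c and Sema3a fell in a hypomorph and Sema3g rose, in most cases against +/- embryos. Sema3c, a ligand of both neuropilins, had 20.4, 24.1 and 20.6 CPM in the 3 wild-type libraries, 26.8, 28.7 and 26.8 in +/-, 15.9, 15.2 and 19.6 in neo/neo and 18, 17.8 and 19.6 in neo/-. Every hypomorph library was below every wild-type library, and the +/- libraries were above all others. The log2 fold change against wild-type was -0.36 (SE 0.092, edgeR adjusted p = 0.0306) in neo/neo and -0.23 (SE 0.092, edgeR adjusted p = 0.116) in neo/-, the latter not called. Against +/- it was -0.70 log2 units (SE 0.092, edgeR adjusted p = 0.00897) in neo/neo and -0.57 log2 units (SE 0.091, edgeR adjusted p = 0.00442) in neo/-. Sema3a, a repellent of cortical axons, had 30.1, 32.9 and 31.0 CPM in wild-type, 35.4, 33.3 and 37.5 in +/-, 25.9, 22.8 and 29.9 in neo/neo and 29.7, 27.9 and 29.3 in neo/-. It too had its highest mean in +/- and its lowest in neo/neo, and at E12.5 only the comparison of neo/neo with +/- passed the test, at -0.44 log2 units (SE 0.081, edgeR adjusted p = 0.0159). Sema3e, the ligand of Plxnd1, was lower in all 6 hypomorph libraries than in wild-type, with log2 fold changes of -0.42 in neo/neo and -0.33 in neo/- that were not called (adjusted p 0.0629 and 0.123). Sema3b, Sema3d and Sema3f were not called in any E12.5 comparison.

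Sema3g went the other way. This endothelial semaphorin had 5.89, 7.64 and 7.02 CPM in +/- and 8.92, 9.68 and 8.64 in neo/- libraries, which did not overlap, and rose by 0.40 log2 units (SE 0.108, edgeR adjusted p = 0.0437). Robo4, a robo of blood vessels, had 10.9, 12.3 and 11.8 CPM in +/- and 14.3, 14.7 and 14.7 in neo/- libraries and rose by 0.32 log2 units (SE 0.077, edgeR adjusted p = 0.0295). Against wild-type (7.96 ± 0.402 CPM for Sema3g and 13.9 ± 1.08 for Robo4) the neo/- values of 0.19 and 0.07 were not called (adjusted p 0.279 and 0.647). In the same comparison all 9 endothelial markers (such as Pecam1 and Cdh5) had positive log2 fold changes and 3 were called higher; their sum was 296 to 331 CPM in neo/-, 262 to 277.6 in +/- and 296 to 299.5 in wild-type libraries. The part of vessel content in these differences was not tested. In these bulk samples fewer cells of a type and less RNA per cell cannot be told apart, here and in every result that follows.

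Both neuropilins and Plxnd1, which receive class 3 semaphorins, were called lower in neo/neo against wild-type. Whether their change there differs from that in the other genotypes was not tested. Nrp2 had 162, 173 and 156 CPM in wild-type, 159, 161 and 148 in +/-, 99.5, 116 and 145 in neo/neo and 139, 134 and 145 in neo/- libraries. All neo/neo libraries were below wild-type, but replicate 3 was much closer to it than replicate 1. The fall in neo/neo was -0.44 log2 units (SE 0.110, edgeR adjusted p = 0.0364), a change of -26.5%. Nrp1 had 66.6, 69.7 and 66.8 CPM in wild-type, 65.6, 60.0 and 65.4 in +/-, 51.0, 57.2 and 59.2 in neo/neo and 63.1, 60.0 and 69.3 in neo/-. Its neo/neo libraries were the lowest of the 4 genotypes and its neo/- libraries overlapped wild-type. The log2 fold change in neo/neo was -0.28 (SE 0.064, edgeR adjusted p = 0.0194). Plxnd1 had 105, 107 and 105 CPM in wild-type, 94.9, 91.8 and 95.9 in +/-, 88.3, 90.8 and 93.8 in neo/neo and 89.4, 108 and 96.0 in neo/-. Both +/- and neo/neo lay below wild-type without overlap, and only neo/neo was called, at -0.22 log2 units (SE 0.055, edgeR adjusted p = 0.0304). The 9 endothelial markers summed to 296 to 299.5 CPM in wild-type, 262 to 277.6 in +/- and 265 to 294 in neo/neo. All 9 were negative in +/-, none called, while in neo/neo 7 were negative and 2 positive, with 1 called lower. The part of vessel content in the Plxnd1 difference was not tested. All 4 A plexins (Plxna1 to Plxna4) had negative values in both hypomorphs, from -0.09 to -0.67 in neo/neo and from -0.18 to -0.54 in neo/-, and none was called. Plxnb1, Plxnb2 and Plxnc1 lay between -0.10 and 0.09 in both hypomorphs and were not called.

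Of the 13 membrane semaphorins, 10 had negative values in neo/neo and 11 in neo/-, and 1 was called in each. That member, Sema4g, had 76.6, 70.4 and 65.9 CPM in wild-type, 67.6, 62.6 and 62.3 in +/-, 56.5, 56.1 and 66.4 in neo/neo and 59.0, 57.7 and 57.0 in neo/-. The neo/- libraries were all below wild-type, while replicate 3 of neo/neo overlapped it. The falls were -0.25 log2 units (SE 0.068, edgeR adjusted p = 0.0374) in neo/neo and -0.29 log2 units (SE 0.068, edgeR adjusted p = 0.0138) in neo/-. Of the others, Sema6b had the lowest values, -0.62 in neo/neo and -0.59 in neo/- (adjusted p 0.0562 and 0.0573), and was not called.

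Among the slit receptors Robo1 and Robo2 were called lower in a hypomorph. Robo1 had 163, 173 and 171 CPM in wild-type, 174, 203 and 164 in +/-, 130.4, 143 and 148 in neo/neo and 131, 122 and 144 in neo/-. No hypomorph library reached the lowest wild-type or +/- library. Its log2 fold change was -0.35 (SE 0.079, edgeR adjusted p = 0.0146) for neo/- against wild-type, -0.36 (SE 0.079, edgeR adjusted p = 0.0285) for neo/neo against +/- and -0.44 (SE 0.079, edgeR adjusted p = 0.0102) for neo/- against +/-. Against wild-type the neo/neo value of -0.27 missed the threshold (adjusted p = 0.0548). Robo2 had 106, 121 and 106 CPM in wild-type, 124, 106 and 114 in +/-, 86.5, 75.8 and 101 in neo/neo and 92.5, 89.9 and 94.7 in neo/-. Its pattern resembled that of Robo1, and the one call was neo/neo against +/-, at -0.38 log2 units (SE 0.095, edgeR adjusted p = 0.0432). Robo3, which is needed for midline crossing, was not called at E12.5. The slit ligands were not called either; Slit1 had 54.1, 61.8 and 58.2 CPM in wild-type and 31.6, 35.0 and 51.9 in neo/neo, a log2 fold change of -0.55 (adjusted p = 0.0814).

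In the netrin families Dcc and Ntng2 fell, and netrin-1 (Ntn1) did not pass any test. Dcc had 109.9, 126 and 123 CPM in wild-type, 122, 122 and 104 in +/-, 88.7, 105 and 104 in neo/neo and 94.5, 92.4 and 97.8 in neo/-. The libraries of both hypomorphs were all below wild-type, and those of neo/- were also below +/-. Its falls were -0.27 log2 units (SE 0.076, edgeR adjusted p = 0.0489) in neo/neo, -0.33 log2 units (SE 0.076, edgeR adjusted p = 0.0155) in neo/- and -0.29 log2 units (SE 0.077, edgeR adjusted p = 0.0468) in neo/- against +/-. Ntng2, a membrane-anchored netrin-G that binds the synaptic protein Lrrc4, had 12, 12.2 and 12 CPM in wild-type, 13.6, 12.2 and 11.1 in +/-, 7.82, 7.57 and 11.2 in neo/neo and 9.33, 9.16 and 9.29 in neo/-. Replicate 3 of neo/neo again lay nearest wild-type, and the neo/- libraries were tightly grouped below it. The falls that passed were in neo/neo, -0.44 log2 units (SE 0.124, edgeR adjusted p = 0.0440) against wild-type and -0.47 log2 units (SE 0.124, edgeR adjusted p = 0.0456) against +/-, while neo/- against wild-type gave -0.38 (adjusted p = 0.0619). Some 14% of the exonic bases of Ntng2 are shared with 6530402F18Rik on the same strand. Ntn1, Ntn4, Ntng1 and the 4 Unc5 receptors were not called at E12.5, and Unc5d had the lowest value among them, -0.80 in neo/neo (adjusted p = 0.0536).

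Of the Eph receptors, 3 fell in neo/- against wild-type: Epha8 and Epha6 of the 9 EphA receptors, of which 7 had negative values, and Ephb1 of the EphB receptors. Epha8 had 2.29, 2.57 and 2.19 CPM in wild-type, 3.15, 3.28 and 1.82 in +/-, 1.51, 1.45 and 1.87 in neo/neo and 1.43, 1.23 and 1.45 in neo/-. The hypomorph libraries were all below wild-type, and replicate 3 of +/- was far below the other +/- libraries. Its log2 fold changes were -0.78 (SE 0.203, edgeR adjusted p = 0.0244) for neo/- against wild-type, -0.77 (SE 0.199, edgeR adjusted p = 0.0412) for neo/neo against +/- and -1.0 (SE 0.202, edgeR adjusted p = 0.0138) for neo/- against +/-. Epha6 had 0.626, 0.826 and 0.574 CPM in wild-type and 0.368, 0.393 and 0.336 in neo/-, that is no more than 35 counts in any library. The groups did not overlap, and the fall in neo/- was -0.87 log2 units (SE 0.242, edgeR adjusted p = 0.0329). Ephb1 had 66.7, 69.5 and 76.3 CPM in wild-type, 71.4, 69.7 and 72.9 in +/-, 57.1, 66.2 and 62.6 in neo/neo and 60.8, 57.8 and 63.5 in neo/-. All hypomorph libraries were below all wild-type and +/- libraries, and the log2 fold change was -0.22 (SE 0.061, edgeR adjusted p = 0.0309) for neo/- against wild-type and -0.23 (SE 0.061, edgeR adjusted p = 0.0411) against +/-. Ephb2, Ephb3, Ephb4 and Ephb6 were not called at E12.5, and neither was any ephrin: the 5 ephrin-A genes lay between -0.30 and 0.20 and the 3 ephrin-B genes between -0.15 and 0.24 in both hypomorphs.

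**Figure D3:**
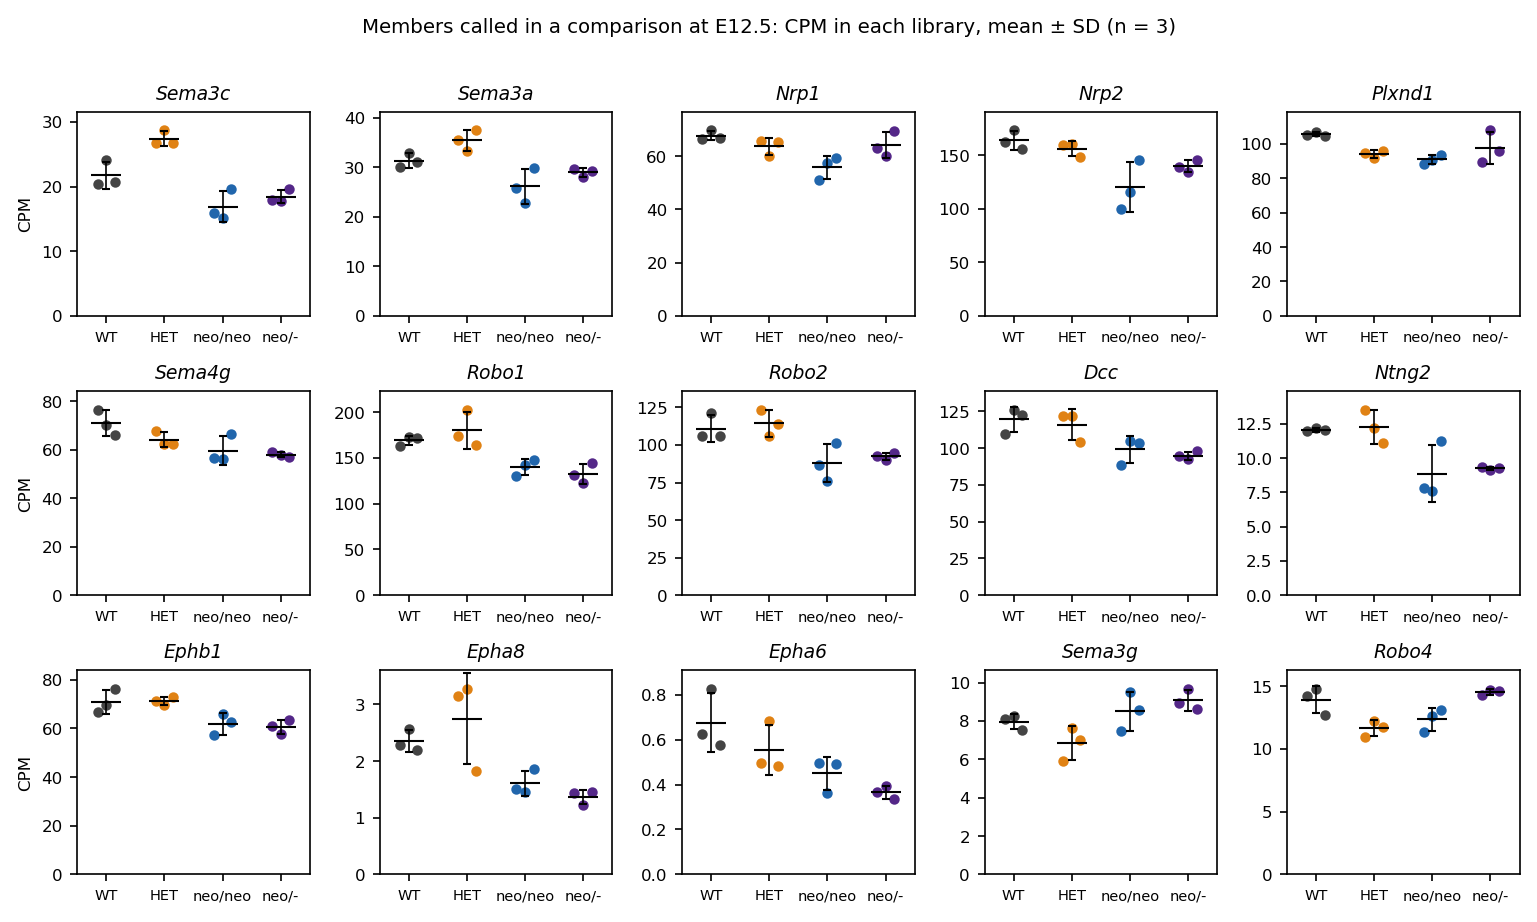
CPM of the 15 members called in at least 1 comparison at E12.5, one point per library, with mean ± SD of 3 libraries for wild-type (WT), +/- (HET), neo/neo and neo/-. Points of 13 members sit lower in a hypomorph than in WT or HET, and those of Sema3g and Robo4 sit higher in neo/- than in HET.

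Against +/- embryos, which carry 1 null allele, 6 members fell in neo/neo (8.82%; 3.28% of all genes lower and 2.0% higher), and 5 fell and 2 rose in neo/- (7.35% and 2.94%; 3.25% of all genes lower and 2.18% higher). The numbers of the neo/neo and +/- libraries appeared to pair, and with the replicate number as a block 3 members were called for neo/neo against +/- (Sema3c, Sema3a and Robo1). No member differed between the 2 hypomorphs by edgeR or by DESeq2 (5 with an unadjusted p under 0.05; 0.0106% of all genes higher and 0.00532% lower), and their median difference was 0.00. The count of calls depended on single libraries. Leaving out replicate 3 of neo/neo gave 24 members in neo/neo against wild-type (22 lower, 2 higher) and 18 against +/-, while leaving out replicate 1 or 2 of neo/neo gave 0 against wild-type and 1 against +/-. For 30 of the 43 members with a lower mean in neo/neo than in wild-type, replicate 3 was the highest neo/neo library. Replicate 3 was also the one neo/neo library with Xist near 0 (2.49 CPM, against 2011 and 1828 in replicates 1 and 2). The part of sex in these counts was not tested. Leaving out +/- replicate 2 gave 13 calls in neo/neo against wild-type. The share of all genes called in these refits is not given, so their counts are not shown to be particular to the members.

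Several of these calls lay near the threshold and were lost under other settings. With the Xist level as a covariate, the calls in neo/neo against wild-type were lost for Plxnd1 (edgeR adjusted p = 0.0609), Sema4g (0.0681), Dcc (0.0767) and Ntng2 (0.0779), and in neo/- for Ephb1 (0.0590). Against +/- the covariate ended the neo/neo calls of Robo1, Robo2, Epha8 and Ntng2 (0.0579 to 0.0813) and the neo/- calls of Dcc, Ephb1 and Sema3g (0.0682 to 0.0770). With trends in length and GC removed, the calls against wild-type were lost in neo/neo for Sema3c (0.0675), Nrp2 (0.0842) and Dcc (0.128), and in neo/- for Dcc (0.0533) and Ephb1 (0.107). Against +/- this removal ended the neo/neo calls of Robo1, Robo2 and Sema3a (0.0503 to 0.171). It also ended the neo/- calls of Dcc, Ephb1 and Sema3g (0.0625 to 0.155). The Dcc call in neo/neo was kept in 7 of 21 alternatives and that of Sema4g in 11, while their calls in neo/- against wild-type were kept in 15 and 18.

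Neuron markers moved beside the members. All 12 had negative log2 fold changes in neo/neo against wild-type (4 called lower, median -0.31) and 11 in neo/- (2 called lower, median -0.16). Their sum was 4171 to 4923 CPM in wild-type, 4411 to 4971 in +/-, 3384 to 3990 in neo/neo and 3738 to 4285 in neo/-, and replicate 3 had the highest sum of the neo/neo libraries. Of 10 radial glia markers 2 were called higher in neo/neo, with sums of 3074 to 3554 CPM against 3076 to 3338 in wild-type. Of 6 erythroid markers 3 were called higher in neo/-, with sums of 4304 to 6863 CPM against 2982 to 3666 in wild-type. The part of cell content in the lower levels of the guidance genes was not tested.

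At E10.5 the question was what loss of Chd8 from the neural lineage did to these genes. In the cKO 8 members rose and 1 fell. The plexins Plxna1, Plxna4 and Plxnb2, the semaphorins Sema3a and Sema3e, the slit Slit3, the vessel receptor Robo4 and the ephrin-B receptor Ephb2 rose, and the membrane semaphorin Sema4f fell. These are 11.8% and 1.47% of the 68 members tested, beside 5.75% of all 18435 genes called higher and 5.7% called lower by the same edgeR test. The cKO libraries lay above the Ctrl libraries for 18 members (26.5%; 15.7% of all genes) and below for 4 (5.88%; 16.6%). The median log2 fold change of the members was 0.12 (46 positive, 22 negative), that of all genes 0.00, and after removing trends with length and GC it was 0.06.

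Of the 8 plexins 3 rose. Plxna1, which signals with either neuropilin, had 161, 203 and 185 CPM in Ctrl and 279.9, 292 and 278.6 in cKO libraries. The groups were far apart, and it rose by 54.8%, or 0.63 log2 units (SE 0.078, edgeR adjusted p = 0.000833). Some 10.7% of its exonic bases overlap the antisense gene Gm26811. Plxna4 had 9.10, 14.6 and 11.1 CPM in Ctrl and 17.4, 18.3 and 17.2 in cKO, a difference of 0.60 log2 units (SE 0.146, edgeR adjusted p = 0.0282). Plxnb2, a receptor for class 4 semaphorins that is abundant in neural progenitors, had 272, 315 and 305 CPM in Ctrl and 375, 374 and 383 in cKO, a difference of 0.35 log2 units (SE 0.065, edgeR adjusted p = 0.00810). Neither gene overlapped between groups. Plxna2 (0.29), Plxnd1 (0.41) and Plxnb1 (0.16) had positive values that were not called, Plxnc1 and Plxna3 were at 0.08 and -0.04, and of the neuropilins Nrp2 was at 0.42 (adjusted p = 0.0766) and Nrp1 at 0.03.

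Of the class 3 semaphorins Sema3e had the widest change. It had 1.45, 1.43 and 2.04 CPM in Ctrl and 3.00, 3.06 and 2.78 in cKO libraries, a difference of 0.84 log2 units (SE 0.165, edgeR adjusted p = 0.0103). Sema3a had 16.4, 22.3 and 19.3 CPM in Ctrl and 27.8, 26 and 23.2 in cKO, a difference of 0.41 log2 units (SE 0.112, edgeR adjusted p = 0.0390). The lowest cKO library of Sema3a was only just above the highest Ctrl library. Both genes lie on chromosome 5 in a row with Sema3d, with gaps of 536 kb between Sema3d and Sema3a and 423 kb between Sema3a and Sema3e; Sema3d was at 0.43 and Sema3c, also on chromosome 5, at 0.26, neither called. The membrane semaphorin Sema4f had 3.97, 3.82 and 4.47 CPM in Ctrl and 2.66, 2.76 and 2.90 in cKO. All cKO libraries were below Ctrl, and at -0.56 log2 units (SE 0.123, edgeR adjusted p = 0.0163) it was the one lower call of the 13 membrane semaphorins.

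Slit3 had 12.9, 16.2 and 18.8 CPM in Ctrl and 20.5, 21.9 and 26.8 in cKO, a difference of 0.53 log2 units (SE 0.144, edgeR adjusted p = 0.0459). Robo4 had 7.55, 8.72 and 8.0 CPM in Ctrl and 9.31, 10.6 and 11.3 in cKO, a difference of 0.36 log2 units (SE 0.104, edgeR adjusted p = 0.0463). Robo4 is best known from blood vessels, and markers of non-neural tissue moved beside both genes. All 10 mesenchyme and meninges markers had positive values in the cKO and 3 were called higher, with sums of 1026 to 1216 CPM in cKO and 828 to 920 in Ctrl. Of 9 endothelial markers 8 were positive and 1 was called, with sums of 266 to 320 CPM in cKO and 249 to 268 in Ctrl. The part of such tissue in the higher guidance genes was not tested. Slit1 and Slit2 were at -0.34 and 0.19, and Robo1, Robo2 and Robo3 at 0.21, 0.11 and 0.57, none called.

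Ephb2 had 138, 141 and 166 CPM in Ctrl and 178, 190.3 and 195 in cKO libraries, a difference of 0.34 log2 units (SE 0.075, edgeR adjusted p = 0.0172). The cKO libraries were all above Ctrl. With trends in length and GC removed the value was 0.20 and was not called (edgeR adjusted p = 0.0759). All 5 EphB receptors had positive values, from 0.00 for Ephb1 to 0.34 for Ephb2. Of the 8 EphA receptors tested 6 were negative and none was called, Epha8 having the lowest value, -0.51 (adjusted p = 0.159). Neither the ephrins, which ranged from -0.12 (Efna1) to 0.30 (Efna5), nor Dcc (0.13), the Unc5 receptors, Ntn1 (-0.25), Ntn4, Ntn5, Ntng1 or Ntng2 were called.

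**Figure D4:**
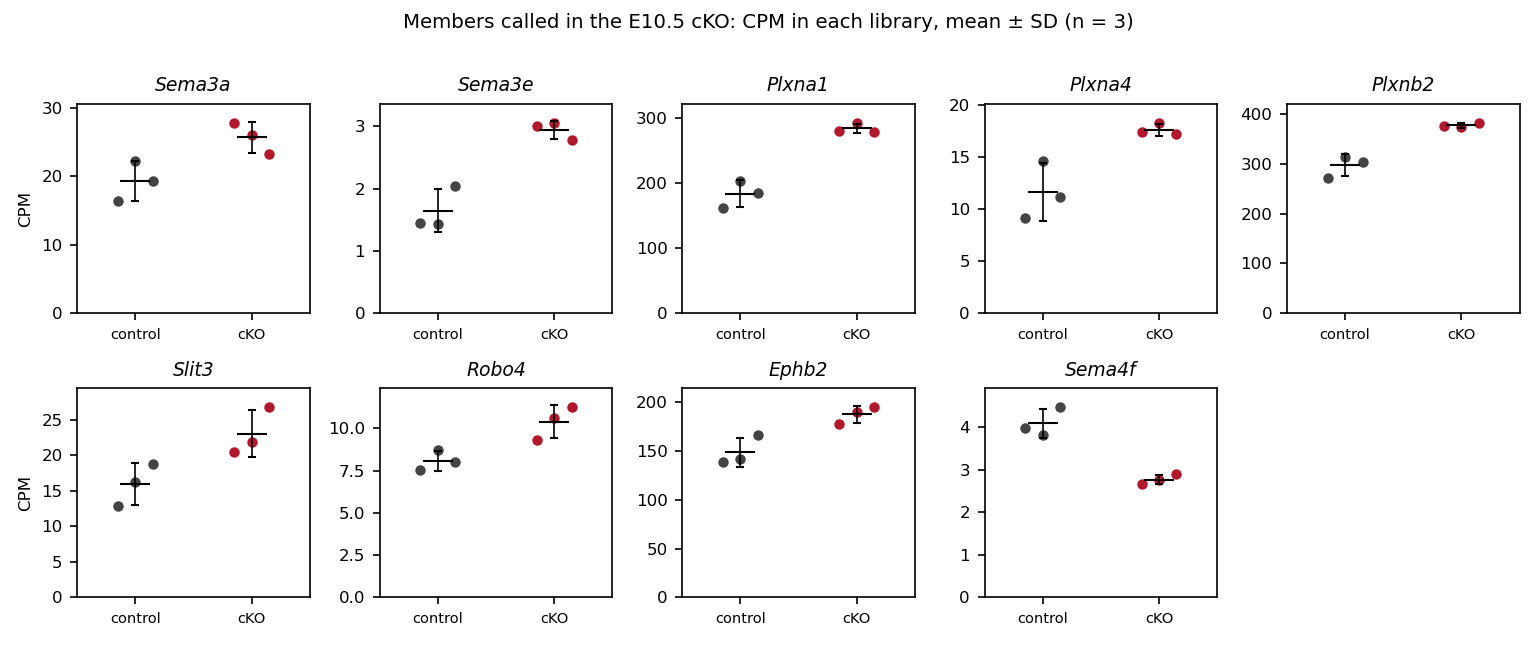
CPM of the 9 members called at E10.5, one point per library, with mean ± SD of 3 control and 3 cKO libraries. The points of the groups do not overlap in any panel, and Sema4f is the one member with lower values in the cKO.

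The number of calls in the cKO also rested on single libraries. Without Ctrl replicate 2, which had the lowest neuron marker sum (256 CPM, against 391 and 443 in the other Ctrl libraries) and was the one pool with Xist near 0, 16 members were called, and without cKO replicate 2 only 2. It was 5 without cKO replicate 3 and 5 without Ctrl replicate 3. With Xist as a covariate 16 were called and Slit3 was not (edgeR adjusted p = 0.0822). Beside Ephb2, removal of length and GC trends ended the calls of Robo4 (0.0804) and Slit3 (0.0724). With these trends removed 5 members were called higher and 3 lower, beside 8 and 1 in the main fit. Plxna1 and Plxnb2 were called under all 14 alternative settings. For these refits too the share of all genes called is not given.

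Sema3a was the one member called in opposite directions, lower in neo/neo against +/- at E12.5 and higher in the cKO at E10.5. The call against +/- was lost with length and GC trends removed (edgeR adjusted p = 0.0652) and kept in 15 of 21 alternatives. The cKO call was kept in 9 of 14. The alleles, the stage, the dissection and the pooling all differed between these comparisons, and whether the effects differ between them was not tested.

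Other genes of the guidance pathways were counted in 2 lists. Of 51 intracellular effectors tested, 4 were lower in neo/neo against wild-type (7.84%; 4.45% of all genes) and 10 in neo/- (19.6%; 5.99% of all genes), with none higher. In neo/neo they included Dpysl2 (-0.25) and Dpysl3 (-0.39), collapsin response mediators downstream of semaphorins, and Srgap1 (-0.25), a slit-robo GTPase-activating protein. In neo/- they included Trio (-0.22), a guanine nucleotide exchange factor downstream of Dcc, Tiam1 (-0.23) and Srgap3 (-0.22). Against +/- 3 were lower in neo/neo (5.88%; 3.28% of all genes), among them Pak1 and Dpysl3, and 5 in neo/- (9.8%; 3.25%). In the cKO 3 of 50 were called higher, including Limk1 (0.25) and Crmp1 (0.24), which at 6.0% is near the 5.75% of all genes, and 1 was called lower, Dpysl4 (-0.24; 2.0%, beside 5.7%).

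Of 25 co-receptors and other cues, 4 were lower in each hypomorph against wild-type (16%, beside 4.45% of all genes in neo/neo and 5.99% in neo/-) and none was higher. Dscam, a netrin co-receptor and adhesion molecule, fell by 0.63 log2 units in each, and Lrig2 by 0.24 in neo/neo and 0.34 in neo/-. Flrt2, a ligand of Unc5d, fell by 0.33 in neo/neo, and Dscaml1 by 0.65 in neo/-. Against +/- 3 were lower in neo/neo (12%; 3.28% of all genes) and 2 in neo/- (8.0%; 3.25%). In the cKO 4 rose (16%; 5.75% of all genes), including Dscaml1 (1.31), Flrt1 (0.54) and Ptprf (0.31), and 1 fell (4.0%; 5.7%).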

How the data were processed

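Cortical mRNA was sequenced as paired reads at E12.5 (12 libraries, 4 genotypes) and E10.5 (6 libraries, 2 groups). According to the methods, the authors trimmed reads with Trim Galore 0.4.1, aligned them to GRCm38 with TopHat2 2.1.0 and counted them with featureCounts 1.5.0. Their deposited files hold the raw counts of each gene in each run, not normalized by the authors. The header of the E12.5 table shows counting without strand and without reads shared by genes, so antisense and overlapping genes lower or mix some values; for E10.5 these settings are not given in the sources used here. The 2 runs of each library were summed. Library totals were 38774591 to 68488879 counts.

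Genes passing edgeR's filterByExpr were fitted with edgeR 4.0.16 (TMM, robust quasi-likelihood, R 4.3.3), 1 fit per stage with group as the only term, Benjamini-Hochberg over all genes tested, threshold 0.05. At each stage 68 members passed the filter, Ntn5 being untested at E12.5 and Epha6 at E10.5. CPM are TMM-scaled. The fits were checked on simulated data. Lists by role and markers, and the members, were chosen with earlier results of these data known. Fold changes were to be given for every member called in any comparison, levels in each library for the 10 members with the smallest adjusted p in the comparisons with wild-type or Ctrl, and up to 3 genes a comparison from each other pathway list; further members were named after their values were seen. Alternatives were DESeq2 1.42.0, other scalings and filters, removal of length and GC trends, a replicate block, Xist as a covariate, fits of 2 groups, and leaving out each library. Same-numbered neo/neo and +/- libraries deviated together (correlations 0.108, 0.195 and 0.199 over genes), a pairing seen in the data and not stated in the labels; in the other comparisons the range was -0.268 to 0.114 with at least 1 value under 0.1. The level of 1 of the marker lists is not reported here.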

Additional observations from a re-analysis of the deposited data

How the results depend on the processing

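No called fold change of a member reversed its direction: of 672 values recomputed for the 35 calls, 454 kept the call and 218 lost it. Plxna1 and Plxnb2 in the cKO and Sema3c and Robo1 in neo/- against +/-, with Sema3c in neo/neo against +/-, were called under every alternative run. DESeq2 called 19 members in neo/neo against wild-type, 13 in neo/- against wild-type, 11 in neo/neo against +/- and 11 in neo/- against +/-, beside 7, 6, 6 and 7 by edgeR; Epha6 had no adjusted p there. In fits of the 2 groups alone the same comparisons gave 3, 23, 1 and 11. With Xist as a covariate they gave 3 in neo/neo against wild-type and 2 against +/-, and 16 in the cKO. With length and GC trends removed, 3 were called in neo/neo and 4 in neo/- against +/-, and in the cKO 5 higher and 3 lower. With both trends removed and the replicate block, the 4 comparisons gave 4, 3, 2 and 4. The replicate block alone gave 3 in neo/neo against +/-. It gave 5 in neo/neo and 7 in neo/- against wild-type, 6 in neo/- against +/- and 13 in the cKO. Of the +/- libraries, every neo/neo library correlated best with that of its own number. Leaving out 1 library gave 0 to 24 calls in neo/neo against wild-type, 1 to 14 in neo/- against wild-type, 1 to 18 and 2 to 11 against +/-, 0 to 1 between hypomorphs, 0 in +/- and 2 to 16 in the cKO. Counts under 1.5 times smaller or larger aside, neo/neo against wild-type gave 0 without wild-type replicate 2, 2 without wild-type replicate 3 and 3 to 4 without a neo/- library; neo/- against wild-type gave 1, 1 and 3 without its own replicates 1, 2 and 3, 3, 2 and 3 without wild-type replicates 1, 2 and 3, and 14 without neo/neo replicate 3; neo/neo against +/- gave 1 without +/- replicate 1 and 3 without wild-type replicate 3 or any neo/- library; neo/- against +/- gave 2 without +/- replicate 1, 4 without +/- replicate 3, 2, 2 and 3 without its own replicates, and 11 without neo/neo replicate 3. The cause was not tested. All these counts are of members alone, without the share of all genes called under the same setting. With 3 libraries a group, the depth limits members at few counts, such as Epha6 with no more than 35 counts in any library.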

Other observations

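Members that are neighbours in the genome gave the following values. Robo4 and Robo3 lie 1.65 kb apart on chromosome 9, and in the cKO Robo4 was at 0.36 (called) and Robo3 at 0.57 (edgeR adjusted p = 0.123) on the log2 scale. Ephb2 and Epha8 lie 93.4 kb apart on chromosome 4, with 0.34 (called) and -0.51 (adjusted p = 0.159). Robo1 and Robo2 lie 846 kb apart on chromosome 16, with -0.35 (called) and -0.26 (adjusted p = 0.0994) in neo/- against wild-type. Sema3d, Sema3a and Sema3e, in a row on chromosome 5, were at -0.05, -0.26 and -0.42 in neo/neo against wild-type, none of them called.

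Markers of the Cajal-Retzius neurons, which line the early cortex and are known for reelin, were not called in any comparison; 7 of them summed to 330.2 to 377 CPM in wild-type and 269 to 322 in neo/neo libraries. Of 10 ventral telencephalon markers, 1 was called lower in each hypomorph against wild-type and 1 in the cKO, with sums of 881 to 935 CPM in wild-type, 737 to 867 in neo/neo, 702 to 863 in neo/-, 32.8 to 57.9 in Ctrl and 23.6 to 34.2 in cKO libraries. Of 6 intermediate progenitor markers 1 was called higher in neo/neo against wild-type, with sums of 464 to 518 CPM over all E12.5 libraries, 90.4 to 183 in Ctrl and 123 to 154 in cKO libraries. Of 6 microglia and macrophage markers 1 was called higher in the cKO, with sums of 27.2 to 38.6 CPM at E12.5 and 20.4 to 29.1 at E10.5. Of 4 neural crest and Schwann cell markers 1 was called higher in neo/- against wild-type, and their sums were 15.02 to 20.8 CPM at E12.5 and 14.6 to 26.4 at E10.5. The sums of 7 surface ectoderm markers were 6.15 to 12.5 CPM at E12.5 and 31.6 to 78.4 at E10.5.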
